A study of Mus musculus with 30 samples.

Results

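The E-cadherin-positive cells of day 2 aggregates were compared with undifferentiated mouse embryonic stem (ES) cells. The day 2 group was 1 sample and the ES group 3 samples, 4 of the 10 samples of the series, and RNA of each was read on all 3 mouse arrays of the Affymetrix U74v2 series, here called the A, B and C chip, so that the comparison rests on 12 of 30 arrays. All samples came from 1 Sox1-GFP ES line of strain 129 origin, in which green fluorescent protein reports the neural gene Sox1. The ES cells had been sorted by flow cytometry for E-cadherin. The day 2 cells came from ES cells that were dissociated to single cells, reaggregated in SFEB culture (floating aggregates in a differentiation medium based on Knockout Serum Replacement) and sorted for E-cadherin after 2 days. The medium is listed with or without fetal calf serum, and the labels do not say which was used for this sample. They also do not say whether ES 1, ES 2 and ES 3 were separate cultures, so their spread may be technical, and there is no replicate of day 2. A sample of day 1 aggregates and a sample of the E-cadherin-negative cells of day 2, of the same line, are set beside the comparison where they bear on it.

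ES cells in the naive state use a network of transcription factors, among them Esrrb, Klf4, Tbx3 and Tfcp2l1, that is sustained by the cytokine LIF through its receptor and STAT3. Cells leaving that state pass through a primed state like that of the postimplantation epiblast, in which Pou5f1 and Sox2 stay on and Fgf5, Otx2 and the de novo DNA methyltransferases come on. E-cadherin (Cdh1) holds epithelial cells together and is carried by ES cells and epiblast, and neural conversion replaces it with N-cadherin (Cdh2).

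The values were scaled intensities per probe set. Differences are given as day 2 minus the ES mean on a log2 scale, with the standard error (SE) of limma. Before the log, 16 was added to each intensity, and this addition understates the change of dim genes. After removal of dim probe sets, 12941 genes were tested, each by its brightest probe set. Median intensities of the day 2 arrays, 188 to 258, lay near those of the ES arrays, 177 to 249. The ratio of 3′ to 5′ signal of the actin control probes, a measure of RNA or labelling quality, was 1.11 to 1.14 on the day 2 arrays, 0.996 to 1.11 for ES 1, 1.15 to 1.25 for ES 2 and 1.64 to 1.85 for ES 3. The ES samples thus differed among themselves in this ratio, and the day 2 sample lay between ES 1 and ES 2. The 3′ actin control itself read 35033 on the day 2 A chip and 17216 to 21461 on those of ES cells, and it was also higher than in all ES samples on the B and C chips.

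In the day 2 cells, genes of the naive network and of the LIF-STAT3 pathway stood below ES cells, genes of the primed epiblast and of the hypoxia response stood above them, and Pou5f1, Sox2 and Nanog stayed high. The largest differences were those of Fos, an immediate early transcription factor, which was higher by 3.01 ± 0.37 (log2, SE), and Mras, a small GTPase, which was lower by 4.18 ± 0.34. No gene passed limma with Benjamini-Hochberg adjustment: 0 of 12941 genes (0%) and 0 of 25690 probe sets had an adjusted p under 0.05, and the lowest were 0.219 and 0.143. At an unadjusted limma p under 0.05 there were 402 genes higher (3.11%) and 562 lower (4.34%), and 2087 probe sets. An exact permutation test of 1 sample against 3 cannot give a one-sided p below 0.25. The genes below are therefore described by whether the day 2 value lay outside the range of the 3 ES samples, and none of them is called changed.

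Of the 12941 genes, 3532 (27.3%) lay above all 3 ES samples and 3587 (27.7%) below. With a difference of at least 1 on the log2 scale (a factor of 2 for bright genes) there were 358 above (2.77%) and 495 below (3.83%), together 853 (6.59%). The median difference over all genes was 0.0029. Between pairs of samples, 1139, 1233 and 1405 genes differed by at least 1 between day 2 and ES 1, ES 2 and ES 3. The ES samples differed from each other in 953 (ES 2 and ES 1), 1331 (ES 3 and ES 1) and 677 genes (ES 3 and ES 2). The distances of day 2 from the ES samples thus overlapped those among the ES samples.

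**Figure D1:**
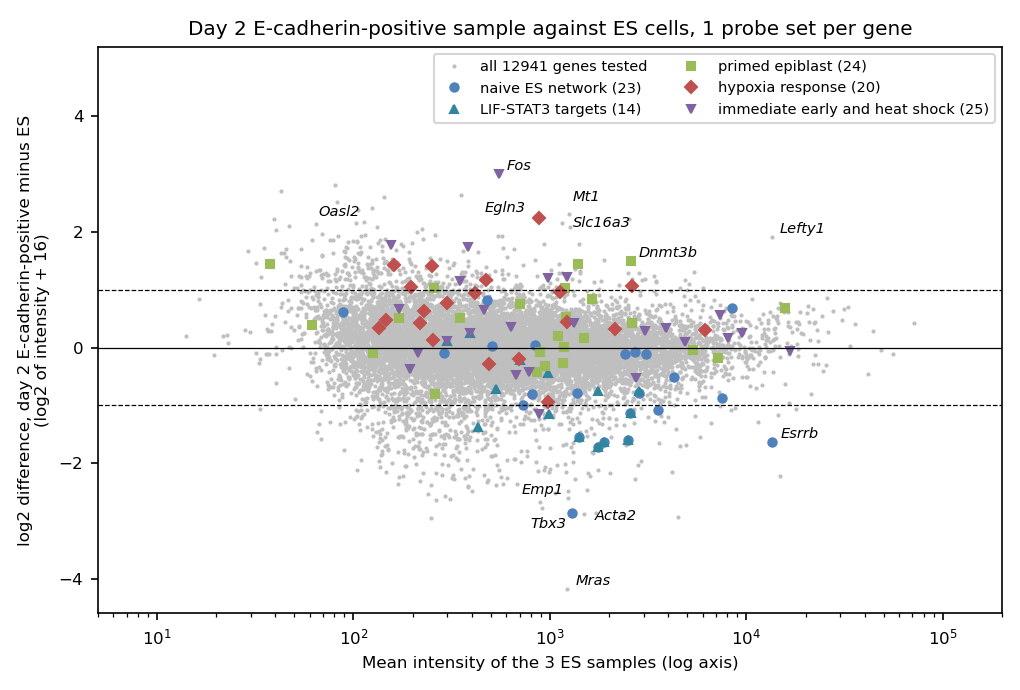
Log2 difference of the day 2 E-cadherin-positive sample from the ES mean (y axis) against the mean ES intensity (x axis, log scale), 1 point per gene and probe set, with 5 gene lists coloured and dashed lines at a difference of 1. Fos lies at 3.01 and Mras at −4.18, and the naive and LIF-STAT3 genes lie mostly below 0 while the hypoxia genes lie mostly above.

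Fos had intensities of 712, 389 and 545 in ES 1, ES 2 and ES 3 and 4397 on day 2. Mt1, a metallothionein that binds zinc and copper, read 1585, 1369 and 786 in ES cells and 5997 on day 2, a difference of 2.31 ± 0.42, although its other probe set differed by only 0.49. Gfra1, the co-receptor of the growth factor GDNF, read 88.7, 93.7 and 244 in ES cells and 865 on day 2 (2.61 ± 0.57), and its 3 probe sets differed by 1.25 to 2.61. In each of these genes the day 2 value was more than 3 times the highest ES value. The other 9 of the 12 largest positive differences were those of Heatr3 (2.81), Lrrc72 (2.70), Arhgap32 (2.65), Osr2 (2.52), 1700129C05Rik (2.41), Gm11562 (2.39), Egln3 (2.24), Chst1 (2.23) and Mga (2.22). Other tested probe sets differed by 0.39 for Arhgap32, 0.89 for 1700129C05Rik and 1.52 for Egln3. Probe sets too dim to be tested differed by −0.098 for Heatr3, −1.23 for Lrrc72, −0.017 for Chst1, −0.010 for Arhgap32 and 1.44 for 1700129C05Rik. For Mga, a partner of the Myc cofactor Max, the ES samples spanned 996 to 4664. Other probe sets of Mga reached down to −0.52, so that its value rests on 1 of 3 probe sets.

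Mras had 944, 1329 and 1408 in ES cells and 51.4 on day 2. A second probe set of Mras differed by −3.08 and the third by 0.083. The brightest one is marked in the chip design as shared between similar transcripts. Emp1, a membrane protein of epithelia, read 1097, 1200 and 1395 in ES cells and 188 on day 2 (−2.60 ± 0.28). Irak3, a brake on Toll-like receptor signalling, read 1266, 2060 and 1831 in ES cells and 217 on day 2 (−2.87 ± 0.36). In Mras, Emp1 and Irak3 every ES value was far above day 2, and the day 1 sample was also below all ES samples, at 72.9, 546 and 265. Alpk3, a muscle-type kinase, stood at 319, 279 and 335 in ES cells, 57.3 on day 1 and 36.8 on day 2 (−2.63 ± 0.28). Mymx, a small muscle fusion protein, had 2822, 4774 and 5818 in ES cells and 548 on day 2 (−2.93 ± 0.54), but 5069 on day 1. S100a6, a calcium-binding protein, read 462, 1622 and 661 in ES cells and 102 on day 2. The other differences among the 12 lowest were those of Slc2a4rg-ps (−2.95), Acta2 (−2.88), Tbx3 (−2.87), Kmt5b (−2.86), Ccdc32 (−2.68) and Wdr38 (−2.64). The 5 probe sets of Kmt5b, a histone H4 methyltransferase, ranged from −2.86 to 0.75.

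The ES samples were not interchangeable. Without ES 1, limma called 44 genes (9 higher and 35 lower on day 2) and 92 probe sets, of which 38 genes lay outside all 3 ES samples, while without ES 2 or without ES 3 it called 0. The genes called without ES 1 include Fos (adjusted p 0.0031), Mt1 (0.021), Mras (0.020), Emp1 (0.0044), Irak3 (0.039), Klf5 (0.038), Egr2 (0.039) and Fosb (0.030). They also include genes that, by their brightest probe set, only ES 2 and ES 3 expressed strongly. Acta2, smooth muscle actin, read 216 in ES 1, 2490 in ES 2, 1760 in ES 3 and 122 on day 2. Tagln, another smooth muscle protein, read 232, 2445, 1979 and 177 in the same order. Igf2, an imprinted growth factor, read 362, 2432, 2496 and 288. On these probe sets of Acta2, Tagln and Igf2 day 2 was near ES 1 and the difference is mostly that from ES 2 and ES 3. A dimmer tested probe set of Acta2 read 357, 44.8 and 53.5 in ES 1, ES 2 and ES 3 and 63.1 on day 2 (−0.56). A probe set of Igf2 too dim to be tested read 36.5, 31.1 and 18.7 in ES cells and 94.7 on day 2 (1.33).

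**Figure D2:**
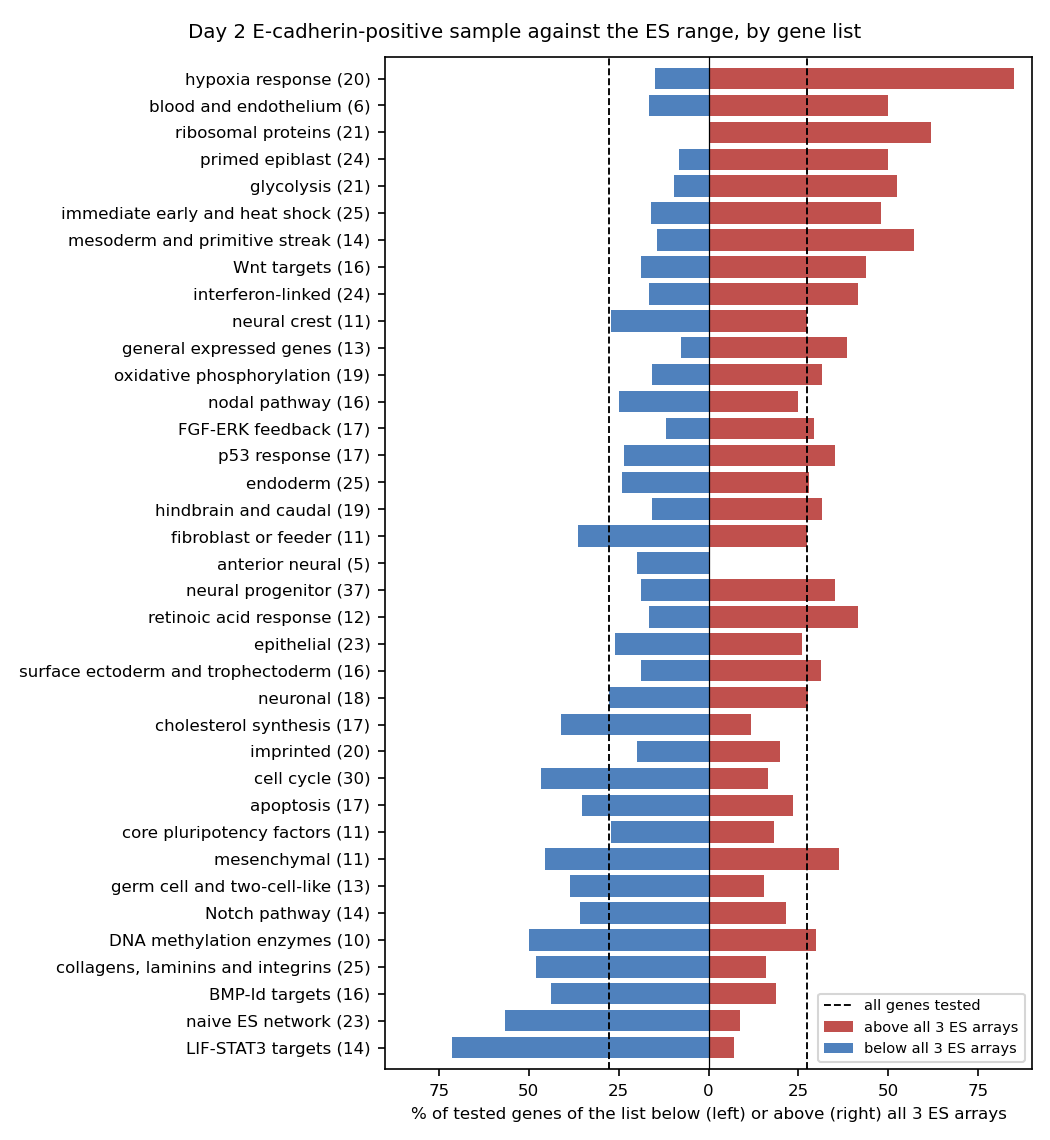
Share of the tested genes of each list (number in brackets) that lay above (right, red) or below (left, blue) all 3 ES samples in the day 2 E-cadherin-positive sample, with lists in order of their median difference and dashed lines at the shares over all genes tested, 27.3% and 27.7%. The hypoxia list has 17 of 20 genes above and the LIF-STAT3 list 10 of 14 below.

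The core pluripotency factors were near their ES levels. For this and the later lists, the shares over all genes tested were 27.3% above and 27.7% below, and 2.77% and 3.83% by 1 or more. Of the 11 genes tested, 2 lay above all ES samples and 3 below, none by 1 or more, with a median difference of −0.17. Pou5f1 (Oct4) had intensities of 7572, 8778 and 6836 in ES cells and 11905 on day 2 (0.63 ± 0.28), but a dimmer probe set of the same gene differed by −0.71. Sox2 read 6956, 5333 and 6499 in ES cells and 6278 on day 2, within the ES range. Nanog read 10940, 5465 and 6292 in ES cells and 6429 on day 2 (−0.17 ± 0.42), and its dimmer probe set differed by −1.31. The probe sets of Pou5f1 disagreed in sign, and for Nanog they disagreed in size. Sall4, a zinc finger partner of Oct4, read 3066, 3357 and 2759 in ES cells and 4815 on day 2, with 3 probe sets between −0.52 and 0.66. Zfp57, which protects imprints, was the lowest of the list at 849, 1069 and 1166 in ES cells and 574 on day 2 (−0.81 ± 0.30). In bulk samples such as these, fewer cells of a type and less RNA per cell cannot be told apart.

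The naive network was lower. Of its 23 tested genes, 13 lay below all ES samples (7 by 1 or more) and 2 above, with a median difference of −0.80. Esrrb, an orphan nuclear receptor, had 12861, 10661 and 16886 in ES cells and 4243 on day 2 (−1.64 ± 0.44). Tbx3, a T-box factor, had 1105, 1107 and 1694 in ES cells and 161 on day 2 (−2.87 ± 0.44), and its other probe set was lower by 1.58. Klf4 read 3339, 1854 and 2290 in ES cells and 787 on day 2 (−1.60 ± 0.37). In Esrrb, Tbx3 and Klf4 the day 2 value was far below the lowest ES value. Klf5, a related Krüppel-like factor, read 1684, 1824 and 2125 in ES cells and 592 on day 2 (−1.63 ± 0.28). Tfcp2l1, a direct target of STAT3, read 1250, 1261 and 1683 in ES cells and 464 on day 2 (−1.55 ± 0.30), while a dimmer probe set differed by 0.079. Zfp42 (Rex1), a common marker of the naive state, read 4338, 3049 and 3243 in ES cells and 1655 on day 2 (−1.07 ± 0.31). Rhox5, an X-linked homeobox gene, read 2238, 3236 and 2211 in ES cells and 1145 on day 2 (−1.13 ± 0.32).

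Some naive genes went otherwise. Klf2 lay above the ES range, at 609, 305 and 526 in ES cells and 833 on day 2 (0.83 ± 0.41). Dppa5a, an RNA-binding protein of ES cells, also lay above it, at 7003, 8895 and 9527 in ES cells and 13526 on day 2 (0.69 ± 0.30). Nr0b1 (Dax1) stayed within the ES range, at 2807, 2227 and 2217 in ES cells and 2224 on day 2. So did Fgf4, the FGF ligand of ES cells, with 2460, 3093 and 3693 in ES cells and 2822 on day 2, and Dppa3 (Stella), with 546, 194 and 126 in ES cells and 222 on day 2. The genes of the naive list were thus not lower as one block.

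The LIF pathway was the list with the lowest median, −0.95 over 14 tested genes, of which 10 lay below all ES samples (6 by 1 or more) and 1 above. It shares Klf4, Klf5, Tfcp2l1 and Gbx2 with the naive list, and among the other 10 genes 7 lay below, with a median of −0.73. At the head of the pathway, the receptor gene Lifr read 446, 440 and 411 in ES cells and 157 on day 2 (−1.37 ± 0.26). Stat3 itself read 1183, 844 and 919 in ES cells and 713 on day 2, a smaller difference of −0.44 ± 0.30. The receptor thus stood farther below ES cells than the transcription factor. Among the targets, Socs3, the feedback inhibitor of the pathway, read 646, 825 and 1480 in ES cells and 406 on day 2 (−1.16 ± 0.46). Sgk1, a serum- and glucocorticoid-regulated kinase, read 3028, 2548 and 2151 in ES cells and 1150 on day 2 (−1.14 ± 0.30). The kinases Pim1 (−0.75) and Pim3 (−0.76) and the NF-kB cofactor Bcl3 (−0.71) also lay below all ES samples, and Junb, a Jun family factor, lay above, by 0.24. The summed intensity of the list was 18125, 18813 and 20098 in ES cells and 9011 on day 2.

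The Socs3 promoter is shown because STAT3 dimers bind TTCNNNGAA. It has 1 such match in the 250 bases before the transcription start (RefSeq, build GRCm38.p6, chr11:117969367-117969616, minus strand), here in capitals.
Socs3: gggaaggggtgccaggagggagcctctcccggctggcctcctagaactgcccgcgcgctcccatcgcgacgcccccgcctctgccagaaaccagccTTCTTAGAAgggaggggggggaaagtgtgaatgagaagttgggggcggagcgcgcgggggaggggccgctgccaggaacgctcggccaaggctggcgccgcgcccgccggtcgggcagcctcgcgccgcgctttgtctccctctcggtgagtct
Searched on both strands (the motif reads the same on each), TTCNNNGAA was in 2 of the 13 LIF-STAT3 genes with a promoter in the table, 15.4%, against 7.02% of all 32851 promoters. Most members of the list therefore have no match in this window.

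The primed epiblast list was higher, with 12 of 24 tested genes above all ES samples (5 by 1 or more), 2 below and a median of 0.40. Fgf5, the classic marker of the primed state, was too dim over the series to be tested, and it read 19.1, 24.2 and 12.5 in ES cells, 88.8 on day 1 and 227 on day 2, a difference of 2.82 ± 0.31 with a limma adjusted p of 0.42 in the fit without a filter. Dnmt3b, a de novo DNA methyltransferase, read 1804, 3075 and 2841 in ES cells and 7129 on day 2 (1.50 ± 0.39), and its other probe set differed by 0.32. Pim2, a kinase, read 878, 1612 and 1684 in ES cells and 3651 on day 2 (1.44 ± 0.42). The day 2 value of each of these genes was above every ES sample, and that of Fgf5 was also above day 1. Wnt8a, a Wnt ligand, read 22.3, 35.4 and 54.7 in ES cells and 125 on day 2 (1.45 ± 0.38). Sall2 (1.03) and Lef1 (0.83), a zinc finger factor and a nuclear partner of beta-catenin, also lay above. Sox3, which follows Sox2 in epiblast and neural plate, read 611, 730 and 764 in ES cells and 1192 on day 2 (0.76 ± 0.28), with 4 probe sets between −0.29 and 1.74. Pou3f1 (Oct6) was barely above, at 223, 451 and 372 in ES cells and 486 on day 2, and Cd24a, a surface protein, stayed within the ES range. Krt18, a keratin, read 118, 375 and 283 in ES cells and 127 on day 2. Otx2 and T had no probe set under these symbols. Without ES 1 the median of the list was 0.11 and 7 genes lay below the remaining ES samples, so that its shift rests in part on ES 1.

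Among the DNA methylation enzymes, Dnmt3a and Dnmt3b stood above the ES range and Tet1 and Tet2 below it. Dnmt3a read 800, 1354 and 1420 in ES cells and 2363 on day 2 (1.02 ± 0.49), and its 3 probe sets lay between 0.43 and 1.02. Tet1, which oxidises methylcytosine, read 5651, 7490 and 9280 in ES cells and 4012 on day 2 (−0.87 ± 0.45), and Tet2 read 1212, 1345 and 1571 in ES cells and 782 on day 2 (−0.80 ± 0.29). Dnmt3l, a cofactor without catalytic activity, lay below the ES range with −0.50 ± 0.30. Dnmt1, the maintenance methyltransferase, stayed within it, at 4005, 3493 and 3280 in ES cells and 3467 on day 2. Of the 10 tested genes of the list 3 lay above and 5 below all ES samples (30% and 50%, against 27.3% and 27.7% over all genes).

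In the Nodal pathway, the inhibitors differed most. Lefty1 read 10869, 11287 and 18113 in ES cells and 49194 on day 2 (1.91 ± 0.47), and its 4 probe sets were all higher, by 0.24 to 2.26. Its brightest probe set is marked in the chip design as shared between similar transcripts, so Lefty1 and Lefty2 may not be fully separated. Lefty2 read 609, 627 and 913 in ES cells and 1484 on day 2 (1.06 ± 0.43). The ligand Nodal stayed within the ES range, at 918, 788 and 700 in ES cells and 891 on day 2. Lefty1 was also high on day 1, at 42663, and in the E-cadherin-negative cells, at 42785. Of the 16 tested genes of the list 4 lay above and 4 below, near the shares over all genes.

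**Figure D3:**
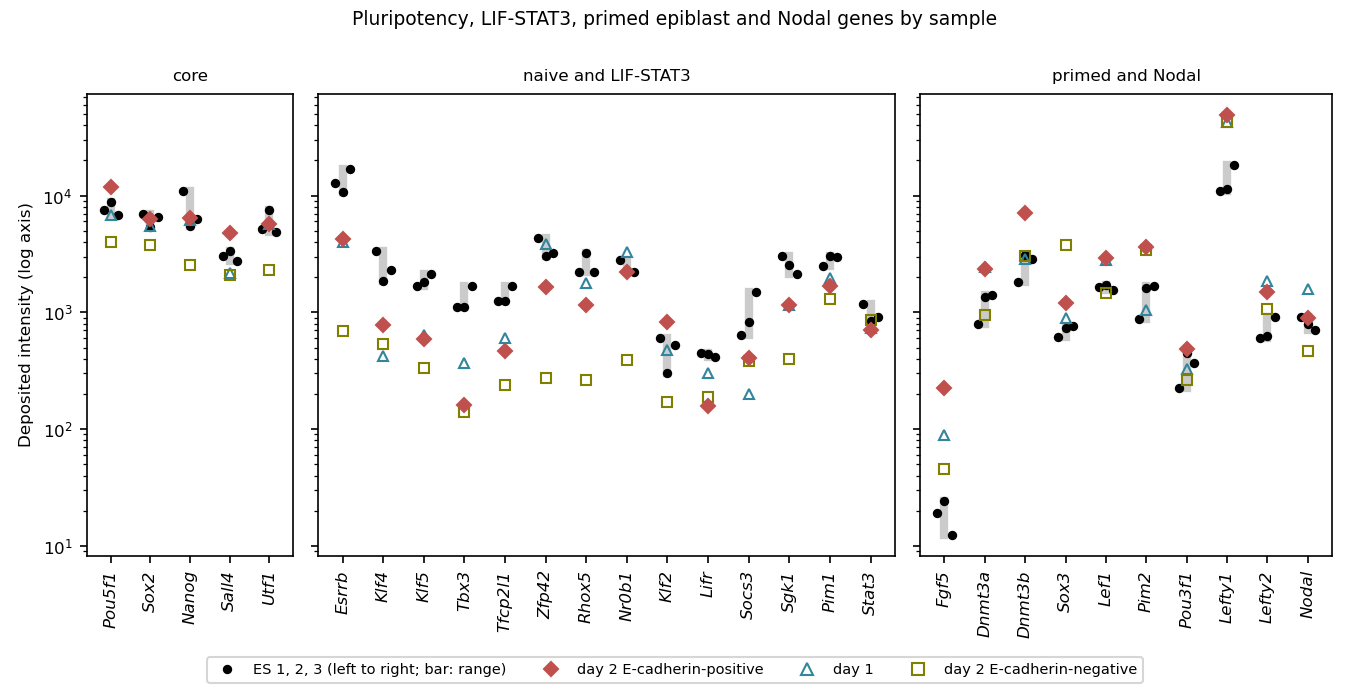
Deposited intensity (y axis, log scale) of core, naive and LIF-STAT3, and primed and Nodal genes in ES 1, ES 2 and ES 3 (black points with a grey bar over their range), day 1 (triangles), day 2 E-cadherin-positive (red diamonds) and day 2 E-cadherin-negative cells (squares), 1 sample each outside ES cells. Esrrb, Klf4, Klf5 and Tbx3 stood below the ES bar on day 2, Dnmt3b and Fgf5 above it, and Sox2 and Nanog within it.

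The hypoxia response was the list with the highest median, 0.55 over 20 tested genes, of which 17 lay above all ES samples (6 by 1 or more), 3 below and 0 within. Beside Hif1a, a subunit of the hypoxia-inducible factor HIF, the list holds targets of HIF. HIF is kept low in oxygen by prolyl hydroxylases. Egln3, a prolyl hydroxylase that is itself a HIF target, read 652, 470 and 1504 in ES cells and 3706 on day 2 (2.24 ± 0.72), and its other probe set was higher by 1.52. Egln1, the main hydroxylase, read 1460, 932 and 975 in ES cells and 2162 on day 2 (0.97 ± 0.36). Both were above every ES sample. Car9, a carbonic anhydrase of the cell surface, read 177, 127 and 179 in ES cells and 454 on day 2 (1.42 ± 0.41). Bnip3, a mitophagy receptor, read 255, 193 and 302 in ES cells and 679 on day 2 (1.41 ± 0.32). Slc2a1 (Glut1), the glucose transporter, read 2526, 2309 and 2974 in ES cells and 5433 on day 2 (1.06 ± 0.28). These 3 genes of different function lay above the ES range by similar amounts. Ddit4, an inhibitor of mTORC1, was higher by 1.17, the collagen prolyl hydroxylases P4ha1 and P4ha2 by 1.05 and 0.94, and the stress gene Ndrg1 by 0.78. Hif1a, the oxygen-regulated subunit, read 5694, 6071 and 6801 in ES cells and 7618 on day 2, a difference of 0.30. Ak4 (−0.94, with 3 probe sets up to 0.66), an adenylate kinase of mitochondria, Adm (−0.28), a vasodilator peptide, and Pfkfb4 (−0.20), a regulator of glycolysis, lay below the ES range. Another probe set of Adm, too dim over the series to be tested, went the other way. It read 22.0, 34.2 and 24.1 in ES cells and 147 on day 2 (1.94). The summed intensity of the 21 members on the chips was 19303, 17339 and 20954 in ES cells, 21446 on day 1, 26059 in the E-cadherin-negative and 30069 in the E-cadherin-positive cells of day 2.

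The promoters of 5 genes above the ES range are shown because HIF binds ACGTG, the core of the hypoxia response element. Matches on either strand in the 250 bases before the transcription start are in capitals (RefSeq, build GRCm38.p6; Egln3 chr12:54203875-54204124, minus strand; Car9 chr4:43506776-43507025, plus; Bnip3 chr7:138909507-138909756, minus; Slc16a3 chr11:120948817-120949066, plus; Pgk1 chrX:106186850-106187099, plus).
Egln3: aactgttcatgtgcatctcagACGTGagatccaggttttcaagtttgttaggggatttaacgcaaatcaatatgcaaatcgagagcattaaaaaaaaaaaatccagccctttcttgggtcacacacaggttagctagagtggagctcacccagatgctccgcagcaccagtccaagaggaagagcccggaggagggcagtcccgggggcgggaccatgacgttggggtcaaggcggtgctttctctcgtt
Car9: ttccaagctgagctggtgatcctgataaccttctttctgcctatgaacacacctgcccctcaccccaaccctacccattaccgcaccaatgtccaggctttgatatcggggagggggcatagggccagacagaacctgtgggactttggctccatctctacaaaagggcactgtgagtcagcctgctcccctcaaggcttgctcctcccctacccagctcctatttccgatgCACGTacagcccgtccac
Bnip3: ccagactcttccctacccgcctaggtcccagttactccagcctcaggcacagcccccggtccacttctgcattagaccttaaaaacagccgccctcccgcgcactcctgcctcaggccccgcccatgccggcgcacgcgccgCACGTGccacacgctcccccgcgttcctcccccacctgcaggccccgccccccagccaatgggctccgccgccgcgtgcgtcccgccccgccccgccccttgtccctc
Slc16a3: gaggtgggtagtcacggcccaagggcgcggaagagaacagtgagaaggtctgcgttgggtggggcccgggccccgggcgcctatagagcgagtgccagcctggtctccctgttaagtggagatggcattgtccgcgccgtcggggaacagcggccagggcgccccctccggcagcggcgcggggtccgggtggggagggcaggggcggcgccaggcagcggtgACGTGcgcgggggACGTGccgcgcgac
Pgk1: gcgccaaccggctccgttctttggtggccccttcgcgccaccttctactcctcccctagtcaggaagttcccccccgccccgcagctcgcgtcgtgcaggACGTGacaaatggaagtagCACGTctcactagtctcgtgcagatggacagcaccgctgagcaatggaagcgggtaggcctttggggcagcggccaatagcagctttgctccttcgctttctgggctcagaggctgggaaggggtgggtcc
The positions of ACGTG differ among the 5 promoters, and in Bnip3 matches on both strands overlap as CACGTG. Of the 18 hypoxia genes with a promoter in the table, 14 hold ACGTG (77.8%), among them 13 of the 15 above the ES range, with Higd1a and Pdk1 as the exceptions. Over all promoters the share was 16.6%, and over the tested genes with a promoter 24.1%. Hif1a itself is counted among the 13. The rest of the list was drawn from known HIF targets, for which such a motif is part of the textbook description. A match is not evidence of binding in these cells.

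Glycolysis genes, which share Slc2a1, Pdk1 and Pfkfb3 with the hypoxia list, were higher too. Of 21 tested, 11 lay above all ES samples (4 by 1 or more) and 2 below, with a median of 0.40, and of the 18 genes outside the hypoxia list 8 lay above and 2 below. Slc16a3 (Mct4), which exports lactate, read 1484, 827 and 1147 in ES cells and 5028 on day 2 (2.15 ± 0.39). Pgk1, phosphoglycerate kinase, read 3102, 2419 and 3316 in ES cells and 6562 on day 2 (1.16 ± 0.30). Ldhb, a subunit of lactate dehydrogenase, read 1046, 987 and 659 in ES cells and 1834 on day 2 (1.05 ± 0.34). These were the 3 largest differences of the list outside the hypoxia genes. Tpi1 (0.76), Aldoa (0.64) and Pfkl (0.63), enzymes of the middle of the pathway, were also above the ES range, and Ldha, the other lactate dehydrogenase subunit, was within it. The brightest genes leaned upward on the day 2 arrays as deposited. After quantile normalization, which took most of that lean away, 11 glycolysis genes lay above the ES range (4 by 1 or more) and 3 below.

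**Figure D4:**
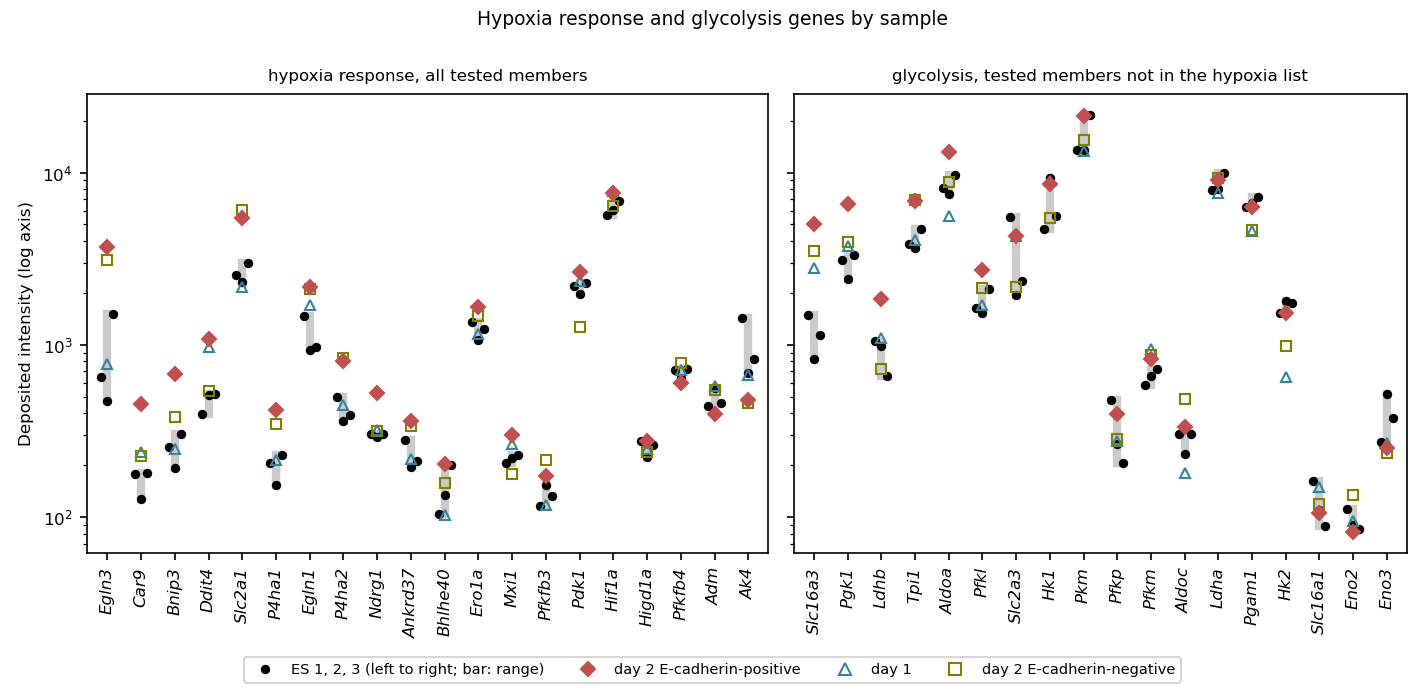
Deposited intensity (y axis, log scale) of all 20 tested hypoxia genes (left) and the 18 tested glycolysis genes outside that list (right), in order of their difference, with symbols as in the plot of pluripotency genes. For 17 hypoxia genes the red diamond of day 2 E-cadherin-positive cells lies above the grey ES bar, among them Egln3 and Car9, and day 1 (triangles) lies within or near the bar for most.

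Most immediate early genes, which are transcribed within minutes of a stimulus, were higher. Of 15 tested, 10 lay above all ES samples (6 by 1 or more) and 2 below, with a median of 0.42, a division of the list of 25 immediate early and heat shock genes that was made after its values were seen. Beside Fos, Egr2 read 148, 138 and 178 in ES cells and 567 on day 2 (1.78 ± 0.28), and Fosb read 451, 310 and 386 in ES cells and 1299 on day 2 (1.74 ± 0.31). Egr2 is a zinc finger factor related to Egr1 that also marks hindbrain, and Fosb is a close relative of Fos. Egr1 read 1358, 609 and 979 in ES cells and 2161 on day 2 (1.20 ± 0.45), with a second, dim probe set at −0.084. The phosphatase Dusp1 was higher by 1.22 ± 0.35, the mRNA decay factor Zfp36 by 1.15 ± 0.37 and the stress factor Atf3 by 0.67 ± 0.27. The 2 below the ES range were Nr4a1 (−0.48, with its other probe set at −0.31) and Myc (−0.37). The other sort of day 2 had Fos at 2189, Egr2 at 540 and Fosb at 887, whereas day 1 had 234, 72.7 and 344. High Fos, Egr2 and Fosb were therefore found in both samples of day 2. They were not found in the day 1 sample or in the ES cells, which had also been sorted. The cause of this difference was not tested. Among the 10 heat shock and stress genes 2 lay above and 2 below the ES range, and Hspa1b, an inducible chaperone, was at 2063 in ES 1, 292 and 295 in ES 2 and ES 3 and 248 on day 2.

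The interferon-linked list was split. Of 24 tested genes 10 lay above all ES samples (6 by 1 or more) and 4 below, with a median of 0.16. Oasl2, an oligoadenylate synthetase-like protein, read 85.5, 142 and 114 in ES cells and 560 on day 2 (2.17 ± 0.34). Ifi35 read 162, 114 and 36.4 in ES cells and 364 on day 2 (1.83 ± 0.64), and the guanylate-binding protein Gbp2 read 41.0, 264 and 198 in ES cells and 394 on day 2 (1.45 ± 0.82). Oasl2, Ifi35 and Gbp2 were lower than this on day 1, at 198, 113 and 55.3, and in the E-cadherin-negative cells, at 115, 24.9 and 55.2. The immunoproteasome subunit Psmb8 (1.38), Gbp3 (1.10) and Ifitm1 (1.08) were higher as well. Oasl1 (−1.03), Irf9 (−0.97), a subunit of the interferon-stimulated factor ISGF3, and Ifitm3 (−0.92), a membrane protein carried by germ cells, were lower than in all ES samples. Most of these genes are dim, and several canonical members, such as Ifit1, Isg15 and Mx1, were too dim to be tested.

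Genes of the extracellular matrix were more often lower than higher. In the list of collagens, laminins and integrins, 12 of 25 tested genes lay below all ES samples (4 by 1 or more) and 4 above, with a median of −0.30. Col4a1, a basement membrane collagen, read 403, 739 and 858 in ES cells and 220 on day 2 (−1.46 ± 0.44). Sparc, a matricellular protein, read 1093, 671 and 742 in ES cells and 292 on day 2 (−1.43 ± 0.35). Lamc1, the gamma chain of most laminins, read 1064, 998 and 1177 in ES cells and 518 on day 2 (−1.03 ± 0.27). These 3 basement membrane genes were below every ES sample. Other matrix genes went the other way. Among the 4 above the ES range were Col18a1 (0.55), Fn1 (0.52) and Lama5 (0.35). The fibrillar collagen Col1a1 read 366, 912 and 948 in ES cells and 280 on day 2 (−1.24 ± 0.54). Another, Col5a2, read 108, 624 and 621 in ES cells and 92.8 on day 2 (−1.76 ± 0.91), or −2.55 without ES 1. In both, as in Acta2 and Tagln, day 2 was nearer to ES 1 than to ES 2 and ES 3. Col1a1, Col5a2, Acta2 and Tagln are also made by fibroblasts, which can serve as feeders. Of the 11 tested genes of the fibroblast or feeder list 4 lay below (all by 1 or more) and 3 above the ES range, and the summed intensity of its 17 members on the chips was 3552, 9046 and 7901 in ES cells and 3606 on day 2. Dcn and Lum, of the same list, were 64.2 to 129 and 44.2 to 87.4 in ES cells and 142 and 84.5 on day 2. Thy1 was 87.6 to 150 in ES cells and 137 on day 2, and Col3a1 was at most 90.3. Col1a2 read 1302, 1156 and 1253 in ES cells and 1360 on day 2 by its brighter probe set, while the dimmer one read 23.5, 474 and 795 in ES cells and 26.5 on day 2. The part of other cells in the ES samples in these differences was not tested.

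**Figure D5:**
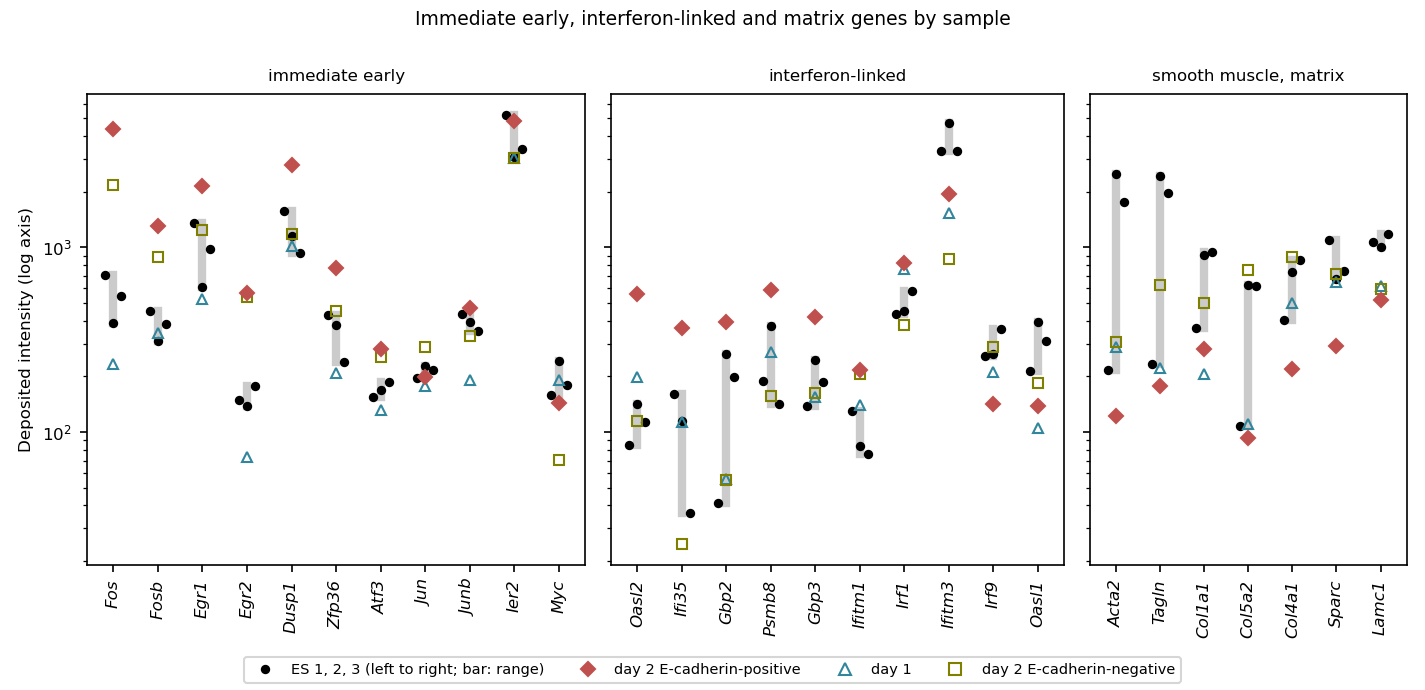
Deposited intensity (y axis, log scale) of immediate early, interferon-linked, and smooth muscle and matrix genes, with symbols as in the plot of pluripotency genes. Fos, Fosb and Egr2 were high in both day 2 sorts, Oasl2, Ifi35 and Gbp2 in the E-cadherin-positive cells, and Acta2 and Tagln in ES 2 and ES 3.

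The sorted marker itself was within the ES range. Cdh1 read 722, 557 and 451 in ES cells and 572 on day 2 (0.015 ± 0.33), and 565 in the E-cadherin-negative cells, so that its mRNA on this chip did not separate the sorts. Epcam, another epithelial adhesion protein, read 2368, 1857 and 1944 in ES cells and 1877 on day 2. Cdh2 read 176, 276 and 279 in ES cells, 347 in the E-cadherin-positive cells and 1601 in the E-cadherin-negative cells. Cdh2, unlike Cdh1, thus followed the labels of the sorts. In the epithelial list 6 of 23 tested genes lay above and 6 below the ES range, near the shares over all genes (27.3% and 27.7%). Grhl3, a grainyhead factor of surface ectoderm, read 5277, 4884 and 4685 in ES cells and 1519 on day 2 (−1.69 ± 0.37), and Cldn4, a tight junction protein, read 1147, 1262 and 1230 in ES cells and 372 on day 2 (−1.66 ± 0.26). Esrp1, an epithelial splicing regulator, was higher, at 229, 160 and 131 in ES cells and 433 on day 2 (1.28 ± 0.35). Tfap2c, an AP-2 factor of trophectoderm and germ cells, was lower by 1.13 ± 0.31.

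Markers of the germ layers were mixed. Over all genes tested, 27.3% lay above and 27.7% below all ES samples. In the neural progenitor list 13 of 37 tested genes lay above and 7 below, with a median of 0.023. Sox1, the reporter locus, read 173, 156 and 138 in ES cells and 253 on day 2 (0.65 ± 0.27), beside 251 in the E-cadherin-negative cells. Nnat, an imprinted gene of neural tissue, read 146, 178 and 122 in ES cells and 437 on day 2 (1.47 ± 0.30), and 5826 in the E-cadherin-negative cells. Crabp1, a retinoic acid binding protein, went the other way in the 2 sorts, at 329, 283 and 342 in ES cells, 136 in the E-cadherin-positive and 6659 in the E-cadherin-negative cells. The homeobox gene Meis2 was higher by 1.24 ± 0.27. In the mesoderm and primitive streak list 8 of 14 tested genes lay above and 2 below, with a median of 0.25 that turned to −0.11 with a filter at the 60th percentile, and its largest difference was that of Kdr, a VEGF receptor (102, 78.4 and 66.0 in ES cells, 227 on day 2, with a second probe set at −0.04). In the endoderm list 7 of 25 tested genes lay above and 6 below (3 by 1 or more), near the shares over all genes. Its median of 0.071 turned to −0.63 with the same filter. Sox17 and Gata6, endoderm factors, read 113 and 110 on day 2, against 70.7 to 93.8 and 78.1 to 138 in ES cells. A second tested probe set of Sox17 read 4.52, 55.9 and 330 in ES cells and 205 on day 2 (1.47). Gata4, another endoderm factor, lay above the ES range, at 502, 207 and 411 in ES cells and 596 on day 2 (0.74).

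Signalling targets were mixed. Over all genes tested, 27.3% lay above and 27.7% below all ES samples, and 2.77% and 3.83% did so by 1 or more. The FGF-ERK list, with 29.4% above, was near the first of these shares. Of 16 Wnt genes tested 7 lay above and 3 below the ES range, with Nkd1, a feedback inhibitor, higher by 1.41 ± 0.60 and the receptor Fzd5 lower by 1.11 ± 0.28. Of 17 FGF-ERK genes 5 lay above and 2 below, with Fgf15, an FGF ligand, higher by 1.45 ± 0.50 and Spred2, an inhibitor of ERK signalling, by 1.33 ± 0.40 on 1 of 3 probe sets, the others differing by 0.021 and 0.065. Without ES 1, 5 FGF-ERK genes lay above and 8 below, and the median of the list turned from 0.090 to −0.087. Of 16 BMP-Id genes 3 lay above and 7 below, none by 1 or more, with Id3 at −0.78 and the inhibitory Smad6 at −0.76. In the cell cycle list 14 of 30 genes lay below and 5 above, with a median of −0.14. Its lowest member was cyclin D3 (Ccnd3), which read 2515, 2194 and 2415 in ES cells and 922 on day 2 (−1.35 ± 0.27). Mdm2, the inhibitor of p53, was higher by 1.24 ± 0.44 on 1 of 2 probe sets, and the germ line gene Rhox9 was lower by 1.69 ± 0.47.

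Ribosomal protein genes, which are bright, moved with the scaling. Of 21 tested, 13 lay above all ES samples and 0 below, with a median of 0.42. After quantile normalization the median was 0.052, with 5 above and 3 below. The 100 brightest genes had a median difference of 0.27 as deposited and 0.019 after quantile normalization. The largest member, Rpl22, had 3 probe sets from −2.58 to 0.92. By contrast 16 of the 20 hypoxia genes lay above the ES range after quantile normalization, 3 below, and the counts of the LIF-STAT3 list, 10 below and 1 above, were as with the deposited scaling.

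The day 1 sample and the E-cadherin-negative cells of day 2 were measured against the same ES samples, and their values are given side by side without a test. For the naive list the medians were −0.28 on day 1, −0.80 in the E-cadherin-positive and −2.17 in the E-cadherin-negative cells. For the LIF-STAT3 list they were −0.96, −0.95 and −1.12, so that this list was as low on day 1 as on day 2. For the hypoxia list they were 0.069, 0.55 and 0.24, and for the neural progenitor list 0.31, 0.023 and 1.57. Between the day 2 sorts, 1 sample each, 618 genes (4.78%) were higher by 1 or more in the E-cadherin-positive cells and 902 (6.97%) lower. Esrrb, at 4243 against 695, and Zfp42, at 1655 against 275, stood higher in the E-cadherin-positive cells, as did 21 of 23 genes of the naive list. Of the neural progenitor list 32 of 37 genes stood lower there. In the primed list 12 genes stood higher and 12 lower in the E-cadherin-positive cells, and Dnmt3b read 7129 in E-cadherin-positive and 3021 in E-cadherin-negative cells.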

How the data were processed

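RNA of sorted cells was measured, per the labels' protocols, as biotin-labelled cRNA on 3 Affymetrix chips. The authors deposited 1 linear intensity per probe set and array. As deposited, the mean of each array after trimming 2% from each tail was about 500 (500.1 to 500.3), so the arrays had been scaled, and the software used is not given in the sources used here. Of 36899 probe sets, 198 were controls, 29131 named 1 gene, 724 several and 6846 none. Symbols were updated to RefSeq (GRCm38.p6). Values were analysed as log2(intensity + 16). Probe sets whose mean reached the 30th percentile of their chip were tested with limma 3.58.1 (R 4.3.3) in a fit of 8 groups and 10 samples. The residual spread came from the 3 ES samples, so the lone day 2 sample is assumed to vary like them. The fit was also run on simulated data with noise drawn from the ES spread. Such a run cannot show whether that assumption holds. p-values were adjusted over the 3 chips together. Each gene was represented by its brightest probe set. The number of arrays limits the precision. The 37 gene lists and the comparison were chosen with earlier results of these data known. The text names 30 fixed genes (Otx2 and T have no probe set) and the 12 largest differences each way. These 12 were taken among genes outside the ES range and reaching their chip's median intensity. Of the 3 largest each way per list only some are named, and some lists appear only as shares in a figure. Other list members were named after their values were seen. Figures used Python 3.11.15 and matplotlib 3.10.9.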

Additional observations from a re-analysis of the deposited data

How the results depend on the processing

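With the spread of only 3 ES samples, limma called 0 genes and 0 probe sets (964 and 2087 at an unadjusted p under 0.05). It called 1 probe set with a pseudocount of 64, 1 with adjustment within each chip, and 4 probe sets and 3 genes with a filter at the 60th percentile. Leaving out ES samples in turn gave 0 to 92 probe sets and 0 to 44 genes, the highest without ES 1. Genes above the ES range by 1 or more numbered 226 with a pseudocount of 64, 611 without a filter, 151 with the 60th percentile and 21 at a difference of 2, and 397 to 495 with an ES sample left out. Genes below numbered 321 with that pseudocount, 231 with the 60th percentile and 70 at a difference of 2, and 503 to 613 with an ES sample left out. Of 37 list medians 21 kept one sign under every alternative run. The fibroblast median turned from 0.032 to −1.24 and those of endoderm and mesoderm to −0.63 and −0.11 with the 60th percentile, and the mesenchymal one from −0.19 to 0.14 with the ES and day 2 arrays fitted alone. The naive, LIF-STAT3, primed, glycolysis, hypoxia, immediate early, interferon, matrix and ribosomal medians kept their sign. With a gene's probe sets averaged the median was −0.55 for the naive list, −0.78 for LIF-STAT3 and 0.33 for ribosomal proteins. With the 60th percentile it was −1.15 for LIF-STAT3, 0.78 for hypoxia and 0.34 for immediate early and heat shock genes. Quantile normalization gave 0.052 for ribosomal proteins, and 75th percentile scaling 0.32 for the immediate early list. With an ES sample left out, the medians were −0.92 to −0.82 for LIF-STAT3, 0.20 to 0.43 for immediate early and heat shock, and −0.38 to −0.16 for matrix genes. With an ES sample left out, signs turned for Cdh1 (−0.14 to 0.19), Sox2 (−0.099 to 0.092), Nanog (−0.37 to 0.13), Nr0b1 (−0.17 to 0.0012), Dppa3 (−0.53 to 0.47), Cd24a (−0.047 to 0.43), Fgf4 (−0.26 to 0.032) and Gata6 (−0.076 to 0.28). With quantile normalization they turned for Sox2 (−0.078), Gata6 (−0.013) and Ldha (−0.043). With probe sets averaged they turned for Pou5f1 (−0.039), Sall4 (−0.034), Col1a2 (−1.21) and Rpl22 (−0.62). The cause was not tested. Of 133 named genes 120 kept one sign under every alternative run. These runs took each gene by its brightest probe set or by the mean of its probe sets, so they do not count disagreement between probe sets. Among the fixed genes and the largest differences, in all and per list, 87 had more than 1 tested probe set. In 44 of these 87 the probe sets differed in sign. The 60th percentile left no gene of the blood list. No paired analysis was possible because the day 2 sample carries no replicate number.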
